A study of Drosophila melanogaster with 16 samples.

Results

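The genes of the cell cycle and of DNA replication were described here through the editing of their RNAs by FMR1-ADARcd. The group was chosen by symbol alone, as a list of 41 genes for replication licensing, cyclins and their kinases, the E2F and RB module, mitotic kinases, the anaphase-promoting complex, the spindle checkpoint, chromosome structure and cytokinesis. Of these, 40 had a called variant in the deposited tables, against 9492 genes with one in the whole series. The symbol ald is an older name of Mps1 and was found under that name only. Editing in bulk could be followed for 38 members, out of 5003 genes in the deposited frequency table, and in single cells for 39 members.

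S2 cells, a line of Drosophila embryonic origin, carried FMR1, an RNA-binding protein, fused to the catalytic domain of ADAR with a V5 tag under a metallothionein promoter, and came from 1 stably transfected clone. ADAR turns adenosine into inosine, read as G, so G at an A position was taken as a sign of contact with the fusion. G can also come from endogenous editing or genomic variants. The study asked which RNAs gain edits when arsenite drives FMR1 into stress granules. There were 3 S2 replicates induced with 1 mM copper sulfate for 4 h and kept in Schneider's medium for a further 4 h, 3 given 0.5 mM sodium arsenite in Schneider's for the latter 4 h, and 1 uninduced library. The brain libraries came from pooled, dissociated brains of larvae of the third instar with UAS-FMR1-ADARcd-V5 joined to EGFP and elav-GeneSwitch-Gal4, a pan-neuronal driver switched on by RU486. They comprised 3 replicates in Schneider's for 4 h, 3 in 0.5 mM arsenite for 4 h and 1 library from larvae without the drug. Single S2 cells of the same construct were sorted into 2 plates, on each of which 96 wells held Schneider's cells, 96 arsenite cells, 96 cells in Krebs-Ringer bicarbonate buffer and 80 cells with 2 h of induction and 2 h in Schneider's.

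A dividing cell licenses its origins in G1, when the origin recognition complex and Dup load the MCM helicase, and geminin then blocks a further round. CycD with Cdk4 and CycE with Cdk2 drive entry into S phase, E2F factors switch on the genes needed there, and CycA, CycB and CycB3 with Cdk1 drive mitosis once the phosphatase String has activated the kinase. In the larval brain these genes are known from neuroblasts and their dividing daughters, whereas S2 cells cycle as a culture.

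Editing was given as the average editing frequency, the mean over the A-to-G positions of a gene of the share of reads with G. The members held 320 such positions in bulk. All genes together had 247153 to 458176 reads at their positions in a library, and the members 2621 to 4625. Pooled over members, the uninduced libraries had G in 39 of 4582 reads in S2 cells, or 0.851% (95% Clopper-Pearson interval 0.606 to 1.16%), and in 10 of 4020 in brains, or 0.249% (0.119 to 0.457%). These intervals cover counting error only. RPM here means reads at the A-to-G positions, scaled to a common total of such reads per library. It is coverage of those positions and not a measure of expression. Markers of S2 cells and haemocytes that the table holds, 4 of 7, took 2476 to 3066 RPM in S2 libraries and 206 to 379 in brains. Hml, He and NimC1 had no position. The 8 of 9 neuronal markers in the table took 37.4 to 80 RPM in S2 cells and 2357 to 2806 in brains. All 7 markers of neuroblasts and progenitors were in the table, at 7.36 to 67.9 RPM in S2 cells and 2537 to 4002 in brains. From which brain cells the reads of the members came was not tested, and in bulk fewer cells of a type and less RNA per cell cannot be told apart.

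The edited bases themselves, read from the deposited variant table, show what was counted. They are given for the 12 members outside chromosome arm 2R with the largest gains at 1 position in S2 cells, among positions with at least 20 reads in both conditions. Each is written 5′ to 3′ on the transcript strand, with the edited adenosine in capitals between its neighbours, and with its BDGP6 coordinate and strand.
fzy, chr2L:16311389 (+): cAa
CycB3, chr3R:24869465 (-): cAc
Mcm2, chr3R:8266320 (+): tAc
Mcm6, chrX:6674801 (+): aAg
SMC1, chr3R:24060465 (+): cAg
CycA, chr3L:11831815 (-): aAg
CycE, chr2L:15728892 (-): aAg
Top2, chr2L:19449635 (-): aAg
sti, chr3L:12510415 (-): cAg
vtd, chr3L:27147488 (+): cAg
polo, chr3L:20312014 (+): cAc
pav, chr3L:4245106 (+): cAg
Of these bases, 10 lay in codons that change the amino acid when read as G and those of sti and vtd were synonymous. The change was K186R in CycA, H355R in CycB3, Y407C in Mcm2, K99R in Mcm6, K843R in Top2, H335R in polo and Q666R in pav, with residues counted from the start of the longest coding sequence of the Ensembl annotation. For fzy at residue 97, SMC1 at 611 and CycE at 710 the first codon base was edited, and the deposited bases do not reach the whole codon. The largest gain was in fzy, from 1 of 30 reads in Schneider's to 19 of 34 in arsenite. CycB3 went from 0 of 23 to 10 of 21, Mcm2 from 2 of 31 to 11 of 23 and CycA from 1 of 48 to 18 of 48. In brains the same base of Mcm2 had G in 0 of 7 and 8 of 17 reads, that of Mcm6 in 2 of 35 and 15 of 54, and that of polo in 13 of 55 and 13 of 73.

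Across all member positions, 285 of 320 lay in coding sequence, or 89.1% (85.1 to 92.3%), against 88.4% of the 32873 positions of all genes. There were 17 positions in 3′ untranslated regions, 15 in 5′ untranslated regions, and the 3 of Orc1 could not be placed because the annotation used here does not hold the gene. Of the positions, 220 changed an amino acid, 38 were synonymous and 27 at the third codon base could not be resolved. The second codon base was the most frequent, with 147 positions against 73 at the first and 65 at the third. Thymidine preceded 36.2% of the edited adenosines (36.2% in all genes), guanosine preceded 4.06% (4.93%), and guanosine followed 46.6% (50.0%). The neighbours of the edited bases of the members were close in frequency to those of all genes.

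**Figure D1:**
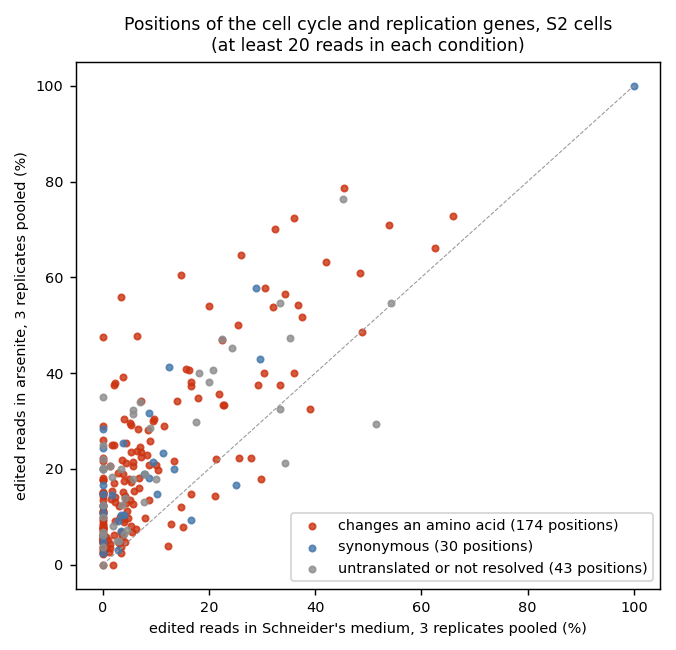
Share of reads with G at each position of the cell cycle and replication genes in S2 cells, in Schneider's (horizontal axis, %) and in arsenite (vertical axis, %), with 3 replicates pooled, at 247 positions with at least 20 reads in each condition. The dashed line marks equal shares, and 226 positions lie above it.

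At single positions the gain in arsenite was widespread. Of 247 member positions with at least 20 reads in both S2 conditions, 226 had a higher pooled share in arsenite, or 91.5%, against 86.1% of 19225 positions of all genes, and the median difference was 10.8 percentage points against 8.09. In brains 134 of 188 such positions were higher, or 71.3%, against 68.4% of 14135 positions of all genes, and the median difference was 3.85 percentage points against 2.94.

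In S2 cells 18 of 38 members rose in arsenite at p under 0.01, the threshold of the study, and none fell. Over all 4589 genes tested, 1083 rose, which is 23.6%, and 4 fell, or 0.0872%. The median difference of the members was 13.6 percentage points, against 10.7 over all genes tested. At an adjusted p under 0.05, 21 members rose (27.2% of all genes, with 0.109% falling), since CycE, SMC1 and vtd met that limit while missing the unadjusted threshold used for the calls. The members were also read more deeply than the table as a whole, with a median of 227 reads in Schneider's against 117 for all tested genes. Among genes with at least 20 reads in every library, 21 of 30 members rose, against 44.3% of 2604 genes. The mean frequency over members was 10.9% ± 1.06 in Schneider's and 26.1% ± 1.81 in arsenite (SD, n = 3). Every arsenite replicate lay above every Schneider's replicate for 31 members, while such separation was met by 51.4% of all tested genes. When each library was divided by its mean over genes, 6 members were higher (CycB, CycD, aurA, fzr, fzy and pav) and 1, E2f1, was lower, and over all genes 165 were higher and 148 lower, or 3.6% and 3.23%. Leaving out Schneider's replicate 1, 2 or 3 left 11, 11 and 10 members called, and 11.4, 11.6 and 11.9% of all genes.

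**Figure D2:**
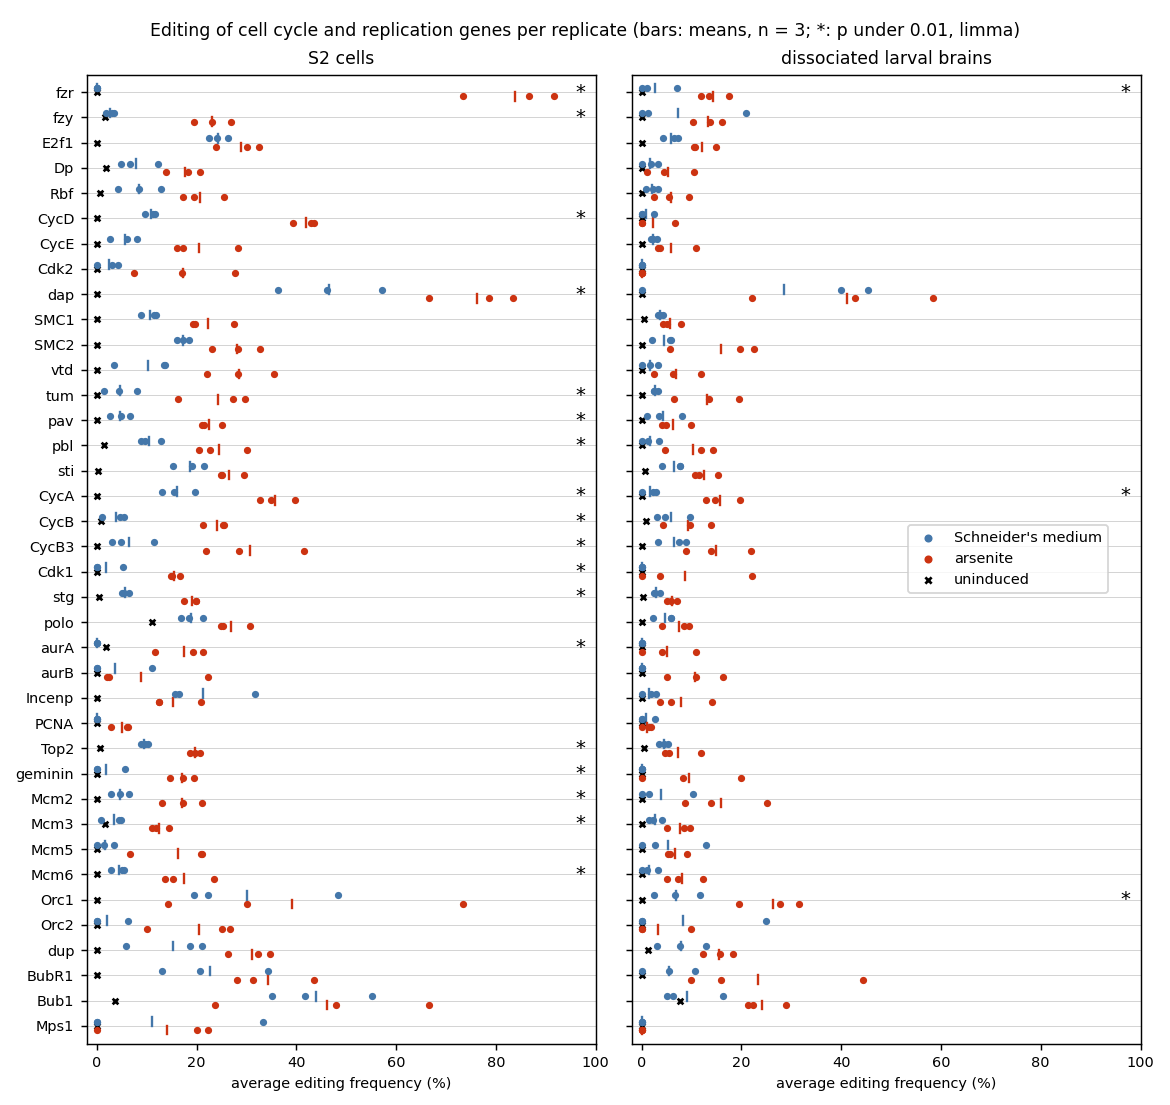
Average editing frequency (%, horizontal axis) of 38 cell cycle and replication genes in each Schneider's (blue) and arsenite (red) replicate of S2 cells and of dissociated brains, with means as bars (n = 3), uninduced libraries as crosses and genes called at p under 0.01 starred. In S2 cells 31 genes and in brains 16 have every arsenite point to the right of every Schneider's point.

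Of the 8 licensing genes with bulk positions, 4 rose, 3 helicase subunits and geminin. Mcm2, Mcm3, Mcm5 and Mcm6 are subunits of the MCM helicase. Mcm2 measured 2.77, 6.52 and 4.71% in Schneider's and 21.1, 17.3 and 13% in arsenite. It rose by 12.5 percentage points (adjusted p = 0.033). Mcm3 measured 4.48, 4.84 and 0.833% in Schneider's and 11, 14.5 and 11.9% in arsenite and rose by 9.09 percentage points (adjusted p = 0.039), the smallest rise among the called members. For Mcm6 the values were 2.84, 5.04 and 5.35% in Schneider's and 23.5, 15.2 and 13.6% in arsenite, a rise of 13 percentage points (adjusted p = 0.04). Mcm5, at 3.33, 0 and 1.52% in Schneider's and 21.1, 6.72 and 20.9% in arsenite, did not pass, and 1 arsenite replicate lay well below the others. Geminin, the inhibitor of Dup, had a single position in codon 189 (K189R) and 3 edited of 146 reads in Schneider's, 0, 5.56 and 0% in Schneider's and 19.4, 14.6 and 17.3% in arsenite. It rose by 15.3 percentage points (adjusted p = 0.023). The licensing factor dup, the fly Cdt1, had 18.8, 21 and 5.85% in Schneider's and 26.3, 32.2 and 34.8% in arsenite, which did not pass (adjusted p = 0.064). Orc1, the largest subunit of the origin recognition complex, had 39 and 44 reads and 22.2, 19.4 and 48.3% in Schneider's and 73.3, 30 and 14.3% in arsenite, a spread that covered the whole difference. Mcm7 had called variants but no A-to-G position that passed the authors' limits.

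At the fork, PCNA, the sliding clamp, was the least edited member of all in arsenite. Its replicates measured 0, 0 and 0% in Schneider's and 6.05, 6.18 and 2.81% in arsenite, from 0 of 461 and 24 of 500 reads. Against the 3-read limit of the Schneider's reads this was at least 7.38-fold higher, but it did not pass (adjusted p = 0.11). Top2, the topoisomerase that untangles sister chromatids, held the most positions, 35, and the most reads, and its replicates lay close together at 10.2, 8.76 and 9.6% in Schneider's and 18.6, 20.7 and 19.7% in arsenite. It rose by 10.2 percentage points (adjusted p = 0.023). Within Top2 the positions differed widely, with G in none of 70 Schneider's reads at codon 1057 (D1057G) and in 34 of 63 at codon 815 (K815R).

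Among the G1/S genes the Cdk4 partner CycD gained most. Its replicates measured 11.3, 11.7 and 9.72% in Schneider's and 43.6, 42.9 and 39.4% in arsenite, so means of 10.9% ± 1.07 and 42% ± 2.27 (SD, n = 3), and it rose by 31 percentage points (adjusted p = 0.016). CycE, the partner of Cdk2, had 8.0, 2.67 and 6.0% in Schneider's and 17.3, 16 and 28.3% in arsenite and did not pass (adjusted p = 0.047), with every arsenite value above every Schneider's value. Dacapo, the fly inhibitor of CycE and Cdk2, was read at 1 position in its 3′ untranslated region and was the most edited member at rest, 36.4, 57.1 and 46.2% in Schneider's and 78.6, 66.7 and 83.3% in arsenite. It rose by 29.6 percentage points (adjusted p = 0.036), from 14 of 31 to 29 of 38 reads, whereas divided by the library means the difference was -0.76 library means, of opposite sign.

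None of the 3 members of the E2F and RB module was called. In bulk E2f1 started high and moved little, 24.1, 22.5 and 26.2% in Schneider's and 32.5, 23.8 and 30.2% in arsenite. Its difference was 4.52 percentage points (adjusted p = 0.27). Its dimer partner Dp had 4.83, 6.71 and 12.2% in Schneider's and 20.6, 18.2 and 13.9% in arsenite and the retinoblastoma protein Rbf 8.43, 4.27 and 12.9% in Schneider's and 19.4, 25.5 and 17.2% in arsenite, with adjusted p = 0.068 and adjusted p = 0.055. All 3 arsenite replicates of Dp and of Rbf lay above their Schneider's replicates, while those of E2f1 overlapped.

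All 5 genes of mitotic entry rose. CycA measured 13.1, 19.7 and 15.4% in Schneider's and 32.6, 34.8 and 39.8% in arsenite, means of 16.1% ± 3.34 and 35.7% ± 3.67 (SD, n = 3), and rose by 19.7 percentage points (adjusted p = 0.021). CycB, at 5.43, 4.71 and 1.11% in Schneider's and 25.4, 21.3 and 25.3% in arsenite, rose by 20.3 percentage points (adjusted p = 0.018). CycB3, with 12 positions, had 4.81, 3.12 and 11.5% in Schneider's and 21.9, 28.5 and 41.5% in arsenite and rose by 24.2 percentage points (adjusted p = 0.036). In each cyclin the lowest arsenite replicate stood well above the highest Schneider's replicate. Cdk1, their kinase, had 1 position, in codon 160 (Y160C), with 1 of 59 reads edited in Schneider's and 10 of 65 in arsenite. Its replicates were 5.26, 0 and 0% in Schneider's and 15, 16.7 and 14.8% in arsenite, a rise of 13.7 percentage points (adjusted p = 0.023). The phosphatase gene stg, among the deepest members, measured 6.51, 5.41 and 4.95% in Schneider's and 19.8, 19.8 and 17.4% in arsenite and rose by 13.4 percentage points (adjusted p = 0.02). Of its 16 positions, codon 276 (E276G) went from 1 of 57 to 23 of 92 reads and a base of the 3′ untranslated region from 0 of 93 to 19 of 94.

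The mitotic kinases were mixed. The centrosomal kinase aurA, at 1.75% in the uninduced library, had 19 edited reads of 107 in arsenite and none of 88 in Schneider's, at least 5.21-fold higher against the 3-read limit. Its replicates were 0, 0 and 0% in Schneider's and 21.2, 11.6 and 19.4% in arsenite. It rose by 17.4 percentage points (adjusted p = 0.023). Its paralogue aurB, at 0, 11 and 0% in Schneider's and 22.2, 2.0 and 2.5% in arsenite, overlapped between conditions. Incenp, which anchors aurB in the chromosomal passenger complex, was the only member with a lower mean in arsenite in bulk S2 cells. Its replicates overlapped, at 16.5, 31.8 and 15.6% in Schneider's and 20.8, 12.5 and 12.4% in arsenite (adjusted p = 0.4). For polo the replicates were 21.2, 16.9 and 18.5% in Schneider's and 25.4, 24.9 and 30.6% in arsenite and the uninduced library stood at 11.1%, far above that of any other member. This came from codon 382, where every read of every S2 library had G (15 of 15 uninduced, 31 of 31 in Schneider's, 35 of 35 in arsenite) and none of 29 and 37 in brains, and from codon 443 (Y443C), with G in 7 of 21 uninduced S2 reads. Without positions at or over 20% G in an uninduced library, polo rose by 9.64 percentage points and passed, which made 19 members.

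Both activators of the anaphase-promoting complex rose. Fizzy, the fly Cdc20, had 3.33, 1.79 and 2.94% in Schneider's and 19.4, 26.9 and 23% in arsenite and rose by 20.4 percentage points (adjusted p = 0.018). Fizzy-related, the Cdh1 of G1, gave the largest difference of all members, 0, 0 and 0% in Schneider's and 86.7, 91.7 and 73.3% in arsenite, a rise of 83.9 percentage points (adjusted p = 0.015). That value rested on 22 reads in Schneider's, none edited, and 20 in arsenite, 13 of them edited, at 3 positions. The first 2 positions are adjacent bases in codons 93 and 92 and had 3 of 3 arsenite reads edited each, whereas codon 67 (Q67R) had 7 of 14. The pooled share of 65.0% was at least 4.77-fold above the 3-read limit.

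None of the spindle checkpoint genes was called in S2 cells. BubR1 had 13, 20.7 and 34.3% in Schneider's and 28, 43.5 and 31.4% in arsenite (adjusted p = 0.24). Bub1 and Mps1 were thinly read, with 53 and 19 reads in Schneider's, and differed by 2.10 and 2.96 percentage points between means. Bub1 was already at 44% ± 10.3 in Schneider's, the highest after dap.

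Cohesin and condensin genes came close to the threshold together. SMC1, a core cohesin subunit, had 11.8, 8.85 and 11.5% in Schneider's and 19.2, 27.5 and 19.8% in arsenite (adjusted p = 0.045), and vtd, the kleisin that closes the cohesin ring, 3.35, 13.6 and 13.5% in Schneider's and 22, 35.5 and 28.3% in arsenite (adjusted p = 0.044). SMC2 of condensin had 17.3, 18.5 and 16.1% in Schneider's and 23, 32.7 and 28.3% in arsenite (adjusted p = 0.054). In all 3 every arsenite replicate exceeded every Schneider's replicate, and among genes with at least 20 reads per library all 3 were called.

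Of the cytokinesis genes 3 of 4 rose. Tumbleweed and Pavarotti form centralspindlin at the midzone. The tum replicates were 1.42, 7.94 and 4.4% in Schneider's and 27.3, 29.6 and 16.2% in arsenite, a rise of 19.8 percentage points (adjusted p = 0.031). Pavarotti RNA had 6.55, 2.67 and 4.75% in Schneider's and 21.4, 21.1 and 25.1% in arsenite and rose by 17.9 percentage points (adjusted p = 0.018). Pebble, which is needed for the cleavage furrow, had 9.61, 12.8 and 8.82% in Schneider's and 20.5, 22.6 and 30.0% in arsenite and rose by 14 percentage points (adjusted p = 0.034). The fourth, sti, the citron kinase, was more edited at rest, 21.4, 15.3 and 19.1% in Schneider's and 24.9, 25.1 and 29.6% in arsenite, and missed the threshold (adjusted p = 0.076).

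The remaining members in S2 cells, Orc2 and Cdk2, had 37 and 123 reads in Schneider's and differed by 18.5 and 15 percentage points without passing. Of the 18 called members, 10 were called whichever replicate was left out, namely geminin, fzr, fzy, CycA, CycB, CycD, Cdk1, stg, aurA and pav. Each such fit called 11.4 to 21.7% of all genes higher, but the share of all genes called in every one was not counted.

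In brains 3 of 36 members rose, CycA, Orc1 and fzr, and none fell. Over all 4192 genes tested 254 rose, which is 6.06%, and 4 fell, or 0.0954%. No member passed an adjusted p under 0.05 by limma (0.0239% of all genes, which is 1 gene), while 11 members were higher at an unadjusted p under 0.05, against 18.5% of all genes. The median difference was 6.02 percentage points over the members and 4.87 over all genes tested, and 35 of 36 members had a higher mean in arsenite. Every arsenite replicate lay above every Schneider's replicate in 16 of 36 members, against 27.5% of all genes. The mean over members was 4.11% ± 1.04 in Schneider's and 10.7% ± 2.89 in arsenite (SD, n = 3), with arsenite replicate 1 at 13.6% and replicate 2 at 7.81%. Leaving out Schneider's replicate 1, 2 or 3 left 2, 4 and 1 members called, and 2.42, 2.79 and 2.01% of all genes. Leaving out arsenite replicate 1, 2 or 3 left 2, 5 and 1 members, and 6.56, 7.18 and 9.58% of all genes. With all 14 libraries in 1 fit 1 member was called, against 6.61% of all genes higher. Divided by the library means also 1 was called, CycA (1.98% of all genes higher and 1.36% lower).

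CycA was the only member called in brains whichever replicate was left out. Its replicates measured 2.38, 2.79 and 0% in Schneider's and 19.8, 12.8 and 14.7% in arsenite, and it rose by 14.1 percentage points (adjusted p = 0.11). For Orc1, from 68 and 55 reads, the values were 2.56, 11.7 and 6.67% in Schneider's and 31.5, 19.6 and 27.8% in arsenite, a rise of 19.3 percentage points (adjusted p = 0.14). Fizzy-related had 1.04, 7.14 and 0% in Schneider's and 17.4, 11.9 and 13.5% in arsenite from 163 and 143 reads and rose by 11.6 percentage points (adjusted p = 0.15), so its replicates in the better read tissue lay far below the arsenite values of S2 cells. All 3 had separate groups in brains.

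Of the other cyclins in brains, CycB had 3.08, 4.64 and 9.71% in Schneider's and 14, 4.39 and 9.8% in arsenite and CycB3 3.24, 7.44 and 8.8% in Schneider's and 21.8, 8.95 and 14% in arsenite. CycE measured 1.84, 3.0 and 2.22% in Schneider's and 10.8, 3.32 and 3.73% in arsenite, and CycD, with 58 and 60 reads, 0, 2.5 and 0% in Schneider's and 0, 0 and 6.67% in arsenite. CycB and CycD overlapped between conditions, whereas CycB3 and CycE were separate but missed the threshold (adjusted p = 0.31 and adjusted p = 0.45). Cdk1 had 0, 0 and 0% in Schneider's and 22.2, 3.7 and 0% in arsenite, with 1 replicate high. The phosphatase gene stg had 2.77, 3.63 and 2.44% in Schneider's and 5.8, 7.08 and 5.19% in arsenite, tight and separate but without passing (adjusted p = 0.33). Within stg, codon 64 (Q64R) was edited in 18 of 114 and 32 of 169 brain reads but in 1 of 160 and 6 of 175 reads of S2 cells, and codon 276 in 0 of 29 and 2 of 34 brain reads.

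None of the helicase genes passed in brains. Mcm2 had 0, 1.43 and 10.2% in Schneider's and 25.1, 13.9 and 8.72% in arsenite, Mcm3 4.05, 2.36 and 1.54% in Schneider's and 8.52, 9.72 and 5.01% in arsenite and Mcm5 12.9, 2.78 and 0% in Schneider's and 9.12, 5.32 and 5.75% in arsenite. Mcm6 had 1.0, 3.21 and 0% in Schneider's and 12.3, 5.02 and 7.24% in arsenite (adjusted p = 0.24). Only Mcm3 and Mcm6 had separate groups among these. The values of dup were 3.12, 13 and 7.76% in Schneider's and 15.7, 18.4 and 12.4% in arsenite and those of geminin, from 23 and 24 reads, 0, 0 and 0% in Schneider's and 8.33, 0 and 20% in arsenite. Top2 measured 4.48, 5.23 and 3.54% in Schneider's and 11.9, 5.57 and 4.7% in arsenite and PCNA 2.78, 0 and 0% in Schneider's and 1.39, 1.92 and 0% in arsenite, the latter with 1 of 107 and 2 of 214 reads edited. Both overlapped between conditions.

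E2f1 was separate in brains, at 4.3, 6.41 and 7.27% in Schneider's and 15, 10.4 and 10.7% in arsenite (adjusted p = 0.22). Its partner Dp had 3.22, 0 and 1.97% in Schneider's and 10.5, 4.41 and 1.15% in arsenite and Rbf 0.794, 2.24 and 3.21% in Schneider's and 9.53, 5.51 and 2.56% in arsenite, both overlapping. Dacapo, from 22 and 28 reads, had 0, 45.5 and 40% in Schneider's and 42.9, 22.2 and 58.3% in arsenite, with 1 Schneider's replicate at 0. BubR1 measured 5.56, 10.7 and 0% in Schneider's and 44.3, 15.8 and 10% in arsenite, 1 arsenite replicate standing far above the others, and Bub1 had means of 9.17 and 24.1% (adjusted p = 0.17) without passing.

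For the kinases, polo had 2.27, 5.87 and 5.91% in Schneider's and 8.5, 4.19 and 9.57% in arsenite, aurA 0, 0 and 0% in Schneider's and 0, 4.17 and 10.8% in arsenite and aurB 0, 0 and 0% in Schneider's and 5.0, 16.3 and 10.9% in arsenite. Among them only aurB was separate (adjusted p = 0.18), from 0 of 74 to 8 of 73 reads. Incenp had 2.86, 0 and 1.82% in Schneider's and 14, 3.67 and 5.82% in arsenite, the reverse of its order in bulk S2 cells, without passing (adjusted p = 0.33). Fizzy had 1.32, 20.8 and 0% in Schneider's and 16.2, 10.3 and 13.6% in arsenite, with 1 Schneider's replicate above every arsenite replicate.

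Cohesin and condensin RNAs had 3.37, 4.26 and 3.68% in Schneider's and 5.08, 4.34 and 7.82% in arsenite for SMC1, 3.33, 1.79 and 0% in Schneider's and 6.25, 2.5 and 11.9% in arsenite for vtd and 5.94, 5.65 and 2.04% in Schneider's and 22.5, 5.65 and 19.6% in arsenite for SMC2. Only SMC1 was separate, and none passed. Of the cytokinesis genes, tum had 2.39, 3.23 and 2.58% in Schneider's and 19.4, 6.51 and 13.6% in arsenite and pbl 1.19, 3.57 and 0% in Schneider's and 14.2, 4.73 and 12% in arsenite, separate without passing (adjusted p = 0.22 and adjusted p = 0.22). The values of sti were 7.76, 4.12 and 7.61% in Schneider's and 15.4, 11.4 and 10.6% in arsenite, also separate, and those of pav 8.17, 1.17 and 3.4% in Schneider's and 9.81, 4.07 and 4.99% in arsenite, which overlapped. In Orc2 the mean was lower in arsenite, 8.33 against 3.33%, from 14 and 18 reads. Cdk2, from 53 and 79 reads, and Mps1, from 8 and 9, had no edited read in brains and were not tested. For Cdk2 this allows a share of up to 5.66% in Schneider's and 3.8% in arsenite, counting 3 reads.

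The arsenite difference itself was set against tissue. It was larger in S2 cells than in brains for 5 members at p under 0.01, CycB, CycD, fzr, pav and stg, and smaller for none, against 8.83% larger and 0.826% smaller of 4963 genes. The excess in S2 cells was 72.3 percentage points for fzr, 29.7 for CycD, 16.7 for CycB, 15.8 for pav and 10.3 for stg. All 5 were called whichever replicate was left out, in fits that each called 5.79 to 10.9% of all genes larger. Divided by the library means, fzr kept its excess while CycA had a smaller difference in S2 cells, the reverse of its sign before scaling, and the other 4 were not called, with 1.55% of all genes larger and 2.04% smaller on that scale. With replicate number as a block 4 members were called, against 5.06% larger and 0.705% smaller. Cell type, inducer, dissociation and batch cannot be told apart in this contrast.

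At rest in Schneider's, 7 members were more edited in S2 cells than in brains, Bub1, CycA, CycD, E2f1, Incenp, polo and sti, and none less. Over 4963 genes 16.2% were higher and 1.47% lower. Cell type, inducer, dissociation and batch cannot be told apart at rest either. By staining, the paper found the fusion in most but not all dissociated brain cells. It was in most neurons, marked by Elav, but in few glia, marked by Repo. The part of this in the differences between tissues, at rest or in arsenite, was not tested. For E2f1 the means were 24.3% ± 1.85 and 6.0% ± 1.53, for sti 18.6% ± 3.11 and 6.5% ± 2.06 and for Incenp 21.3% ± 9.08 and 1.56% ± 1.45. CycA had 16.1% ± 3.34 and 1.72% ± 1.51, CycD 10.9% ± 1.07 and 0.833% ± 1.44 and Bub1 44% ± 10.3 and 9.17% ± 6.17. All but Bub1 were called whichever replicate was left out, in fits that each called 10.7 to 18.1% of all genes higher. The difference for polo was 14.2 percentage points but 1.88, no longer called, without the positions at or over 20% G in an uninduced library, which include the 1 that read G throughout in S2 cells. Divided by the library means 4 members were called at rest, CycA, CycD, E2f1 and Incenp (9.13% higher and 3.99% lower of all genes). Over 38 members the Schneider's means of the tissues had a Pearson r of 0.67 and a Spearman coefficient of 0.42, values that share positions and base context. In single S2 cells, with reads pooled and only in part the same positions, the 7 members called at rest had 3.53 to 6.32% in Schneider's. All lay below their means in bulk S2 cells. The median over all genes was 4.36% in single cells and 9.10% in bulk S2 cells. What positions, measure and cells contribute to this was not tested.

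**Figure D3:**
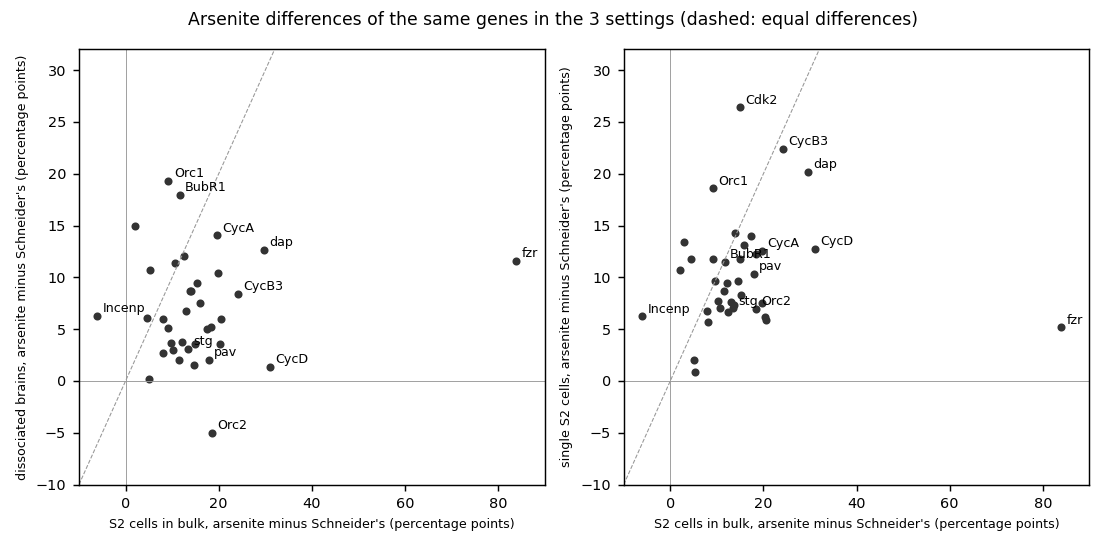
Arsenite minus Schneider's difference (percentage points) of each cell cycle or replication gene in bulk S2 cells (horizontal axis) against brains (left, 36 genes) and single S2 cells (right, 38 genes). Each point is 1 gene, the dashed line marks equal differences, and fzr stands at 83.9 percentage points in bulk S2 cells but at 11.6 and 5.17 in the other settings.

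Single S2 cells were compared after summing the reads of all wells of a treatment on a plate, since cells of a plate are not replicates. Both plates used the same 368 well barcodes, told apart by plate. In these sums 9 of 39 members rose, BubR1, CycB3, CycD, Dp, Mcm3, Orc1, dap, pbl and vtd, and none fell, against 13.6% rising and 0.105% falling of 5690 genes tested. With the plate as a block, 1 member was called, CycB3 (2.79% of all genes higher, 0.0879% lower). None passed an adjusted p under 0.05 without the block (0.0351% of all genes higher). By a quasi-binomial model on the reads none passed, against 3.51% of all genes higher. At an unadjusted p under 0.05, 26 members were higher in the comparison by limma, against 44.8% of all genes. Both arsenite sums lay above both Schneider's sums for 34 of 39 members, against 72.5% of all genes, and the median difference was 9.41 percentage points against 8.53.

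CycB3 had the clearest gain, 2.35 and 2.87% in Schneider's and 24.4 and 25.6% in arsenite on plates 1 and 2. It rose by 22.4 percentage points (adjusted p = 0.071), and was called with the plate block too. Orc1 had 1.63 and 0% in Schneider's and 18.3 and 20.5% in arsenite on plates 1 and 2 and rose by 18.6 percentage points (adjusted p = 0.071). Dacapo, here with 6 positions, had 5.49 and 0% in Schneider's and 19.8 and 26% in arsenite on plates 1 and 2 and rose by 20.2 percentage points (adjusted p = 0.072), so its level at rest lay far below the bulk value from 1 position. CycD had 3.56 and 3.49% in Schneider's and 14.2 and 18.3% in arsenite on plates 1 and 2 and rose by 12.7 percentage points (adjusted p = 0.071).

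Among the other risers, Mcm3 had 1.54 and 2.17% in Schneider's and 14.8 and 12.5% in arsenite on plates 1 and 2, Dp 4.89 and 3.64% in Schneider's and 14.7 and 13.1% in arsenite on plates 1 and 2 and BubR1 5.92 and 4.45% in Schneider's and 17.9 and 15.5% in arsenite on plates 1 and 2. The values for vtd were 5.56 and 2.8% in Schneider's and 16.3 and 16.5% in arsenite on plates 1 and 2 and for pbl 6.05 and 3.39% in Schneider's and 20.4 and 17.6% in arsenite on plates 1 and 2. Their rises were 11.8 (Mcm3), 9.64 (Dp), 11.5 (BubR1), 12.2 (vtd) and 14.3 (pbl) percentage points, with adjusted p = 0.071 each. CycA, at 2.74 and 4.59% in Schneider's and 18.3 and 14.2% in arsenite on plates 1 and 2, fell just outside the threshold (adjusted p = 0.072). Of the 18 genes called in bulk S2 cells, 5 were called here too, CycB3, CycD, Mcm3, dap and pbl. Beside this, 9 of all 39 members and 13.6% of all genes were called in single cells, and the overlap was not tested.

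**Figure D4:**
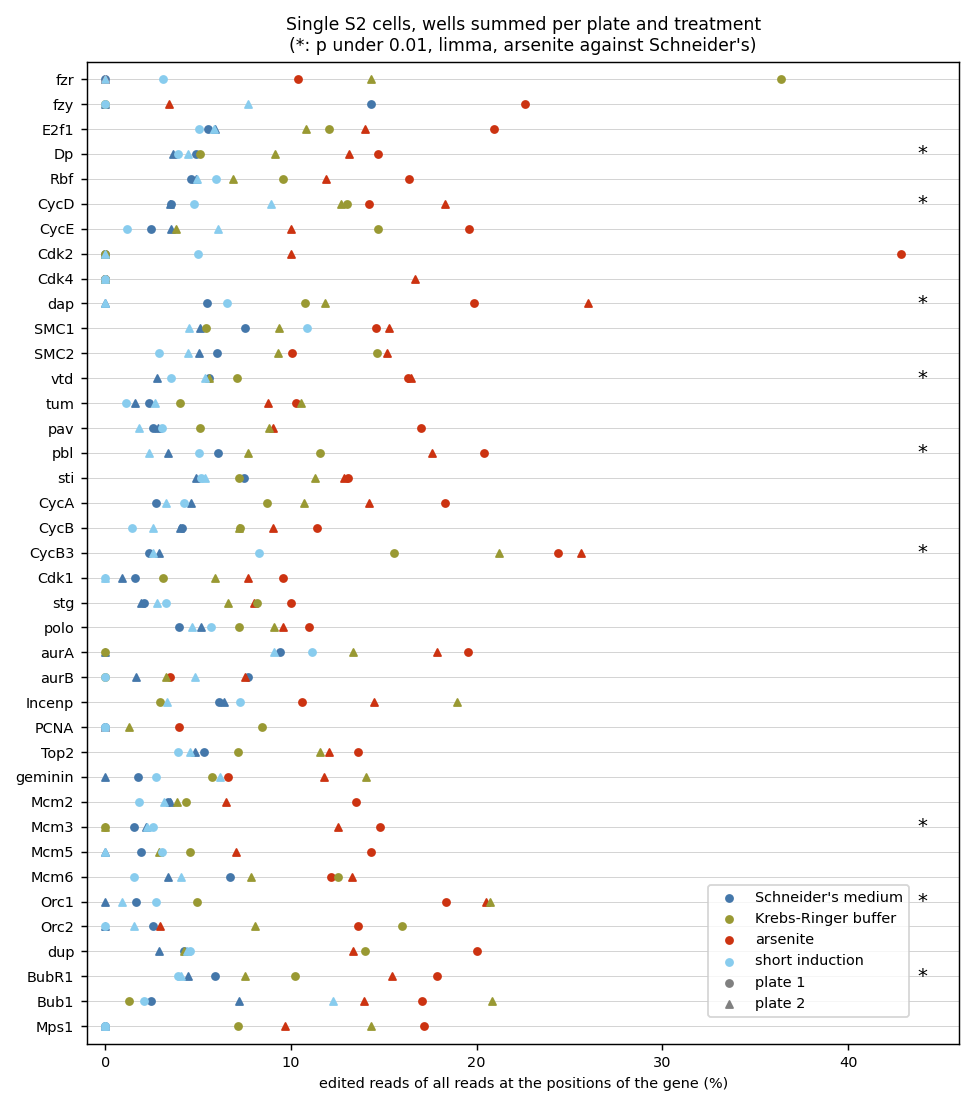
Share of reads with G over the positions of each cell cycle or replication gene (%, horizontal axis) in single S2 cells, summed per plate (circles, plate 1, triangles, plate 2) and treatment (colours), with genes called between arsenite and Schneider's starred. Both arsenite points lie to the right of both Schneider's points for 34 of 39 genes.

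The differences of fzr, fzy and geminin in single cells did not reach the threshold. In fizzy-related 3 of 55 arsenite reads and 0 of 39 Schneider's reads were edited. Its plate values were 0 and 0% in Schneider's and 10.3 and 0% in arsenite on plates 1 and 2. Those of fizzy were 14.3 and 0% in Schneider's and 22.6 and 3.45% in arsenite on plates 1 and 2. Geminin had 1.75 and 0% in Schneider's and 6.59 and 11.8% in arsenite on plates 1 and 2 at its 1 position (adjusted p = 0.11). Across 38 members the difference in bulk S2 cells and in single cells had a Pearson r of 0.059 and a Spearman coefficient of 0.20, and without fzr an r of 0.37 over 37, values that share the cell line and in part the positions, 215 of 320. Cdk4, not covered in bulk, had 0 of 21 and 1 of 16 reads edited. PCNA was again the least edited member in arsenite, with 5 of 232 reads, and 0 of 259 in Schneider's. Cdk2 went from 0 of 104 to 17 of 55 reads, but at 42.9% on plate 1 and 10% on plate 2 (adjusted p = 0.21).

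Krebs-Ringer buffer, a further stress, and the shorter induction, which also had the shorter time in Schneider's, were read as pooled shares without a test. Neither treatment has a well in the authors' deposited single-cell frequencies, so its reads came from the variant counts only. The median over 39 members was 3.71% after 2 h of induction, 3.54% in Schneider's after 4 h, 9.04% in Krebs-Ringer buffer and 13.6% in arsenite. In 35 members the pooled share was higher in Krebs-Ringer buffer than in Schneider's, and in 34 higher in arsenite than in Krebs-Ringer buffer. Of 5668 tested genes with reads in each of these treatments, the same held for 79.9% and 80.3%, and their medians were 4.36% in Schneider's, 8.42% in Krebs-Ringer buffer and 13.6% in arsenite. CycB3 stood at 17.8% in Krebs-Ringer buffer (95% Clopper-Pearson interval 12.3 to 24.4%), between 2.62 and 24.8% in Schneider's and arsenite. The shares of Mcm2 were 4.05% in Krebs-Ringer buffer, against 3.40% in Schneider's and 11% in arsenite. In fzr 24.0% of reads were edited in Krebs-Ringer buffer (9.36 to 45.1%), and in arsenite 5.45% (1.14 to 15.1%), with overlapping intervals. Wells in Krebs-Ringer buffer also had fewer reads, with medians of 16194 and 19620 against 20350 to 24254 in Schneider's and arsenite, and the part of depth in these shares was not tested.

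**Figure D5:**
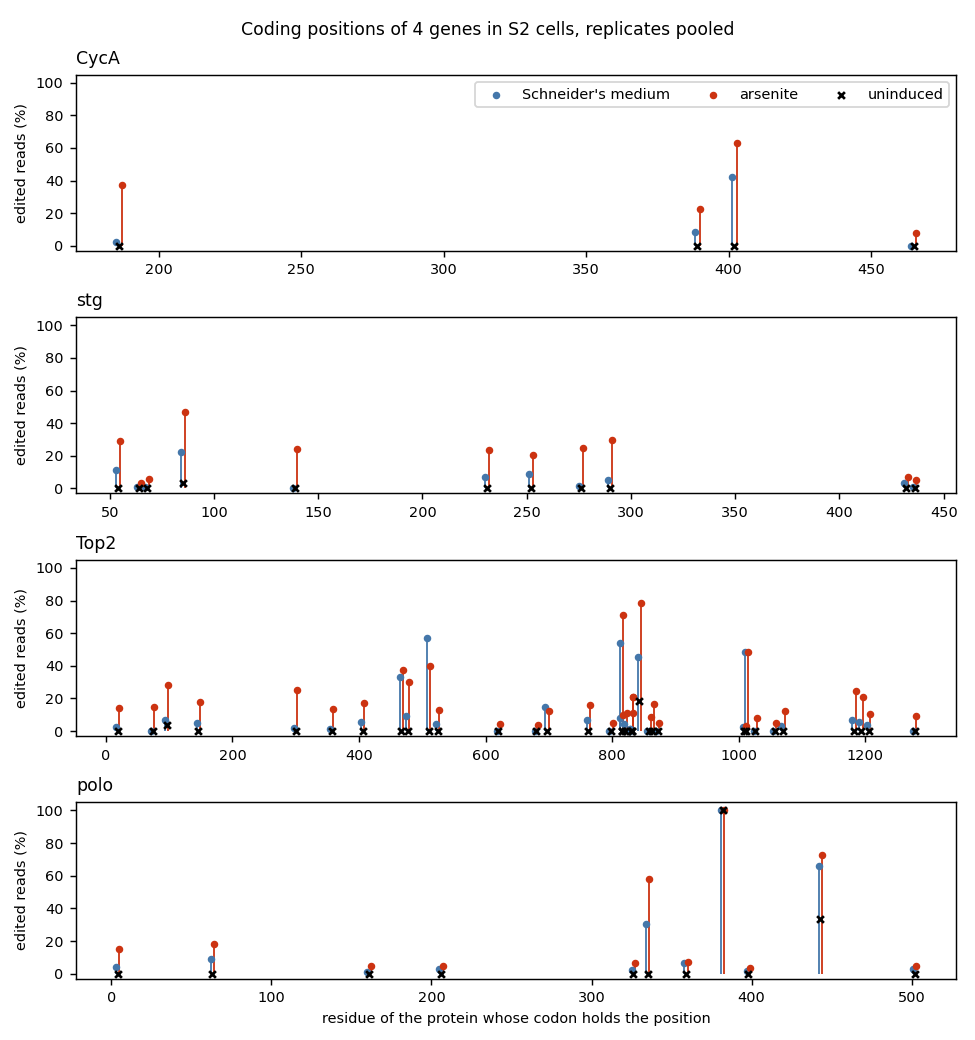
Share of reads with G (%, vertical axis) at the coding positions of CycA, stg, Top2 and polo in S2 cells, along the residues of the proteins, with replicates pooled, in Schneider's (blue), arsenite (red) and the uninduced library (crosses). Codon 382 of polo stands at 100% in all 3 conditions.

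The wider machinery was read from 148 further symbols in 8 lists, some of them alternative names of the same gene, so the genes are fewer. In S2 cells 37 of 107 tested rose, or 34.6%, and none fell, with a median difference of 11.3 percentage points, beside 23.6% and 10.7 for all genes. In brains 10 of 96 rose (10.4%, beside 6.06%) and in single cells 28 of 117 (23.9%, beside 13.6%). Replication origin licensing and fork genes had 10 of 21 in S2 cells, with a median of 17.3 percentage points, APC/C and SCF ubiquitin ligases 5 of 12, and cohesin, condensin and sister separation 6 of 16. Spindle checkpoint and kinetochore genes had 5 of 19 in S2 cells, 4 of 16 in brains and 6 of 18 in single cells. Mitotic kinases, phosphatases and CDK partners had 4 of 14 in S2 cells, cytokinesis and chromosomal passenger genes 2 of 11, E2F, RB and dREAM genes 4 of 7 and DNA damage checkpoint genes 1 of 7. In S2 cells the largest rises among called genes with separate groups were those of DNApol-alpha60, a primase subunit, from 2.88% ± 1.29 to 46.5% ± 18.6, APC4, from 0 to 34.4% ± 15 on 7 and 12 reads, and Sld5 of the GINS complex, from 0 to 32.8% ± 7.52 on 59 and 36 reads (SD, n = 3). In brains they were SA, a cohesin subunit, from 5.46% ± 5.40 to 25.7% ± 4.78, the checkpoint gene Mad1, from 1.23% ± 1.14 to 20.2% ± 3.38, and the kinesin gene cana, from 1.11% ± 1.92 to 18.3% ± 7.64 (SD, n = 3). The value of cana rested on 25 Schneider's and 21 arsenite reads over 11 positions.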

How the data were processed

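The authors trimmed reads with cutadapt 3.2, removed ribosomal RNA with BWA 0.7.17-r1188, aligned to BDGP6 with STARsolo 2.7.7a, collapsed molecules with UMI-tools 1.1.1 and called variants with GATK 4.1.9.0, as the study's methods and the submitters' processing notes give them. The deposited bulk values are fractions, the mean over A-to-G positions (call quality over 250, allele frequency under 0.95) of the share of reads with G. Reads with each base came from the deposited variant counts, with 1 count per collapsed molecule, and recomputed fractions equalled the deposited ones within 1e-06 for all 38 members. The authors' own comparison tables were not used, nor were 10 bulk libraries and 42 single-cell names without a group.

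The test of frequencies was limma (version 3.58.1, under R 4.3.3, two-sided, untransformed, genes above 0 in at least 1 sample). Genes were called at an unadjusted p under 0.01, and every adjusted p is Benjamini-Hochberg over all genes tested. All p-values of single genes are from these limma fits across all genes. The tissue contrasts used the 12 induced libraries, and single-cell reads were summed per plate and treatment. The plates pair their sums as a shared batch. The study's methods call the brain replicates biological triplicates and the S2 replicates triplicate experiments. Fits were tested on simulated data. Intervals are 95% Clopper-Pearson, and the limit for a count of 0 is 3 reads. Other scales, filters, models and left-out replicates were tried as alternatives. Sorted doublets were gated out by the authors.

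Values per sample are given for members called in at least 1 of 3 comparisons or with at least 100 reads per condition in a tissue, and the other members by counts and ranges. The members, the wider lists and the marker lists were chosen with earlier results of these data known. Glial markers, 3 of 7 in the table without repo, alrm, wrapper and Gs2, had 31.9 to 58.2 RPM in S2 cells and 146 to 245 in brains.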

Additional observations from a re-analysis of the deposited data

Results flagged for a closer look

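For 5 members the arsenite difference was larger in S2 cells than in brains by the limma test of the difference itself at p under 0.01. The excess was 72.3 percentage points for fzr (adjusted p = 0.00072), on 20 arsenite reads in S2 cells. For CycD, with G in 5 of 5 S2 arsenite reads at 1 position, it was 29.7 (adjusted p = 0.0028). It was 10.3 for stg (adjusted p = 0.035), 15.8 for pav (adjusted p = 0.042) and 16.7 for CycB (adjusted p = 0.057). In all 5 every S2 arsenite replicate lay above every S2 Schneider's replicate, while in brains this held for fzr and stg only. Over all tested genes it held for 51.4% in S2 cells and 27.5% in brains. The 5 members were picked by a test of these same values, so their separation adds no further support. Cell type, inducer and batch cannot be told apart in this contrast.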

How the results depend on the processing

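A % in brackets here is the share of all genes called higher in the same fit. In S2 cells 18 members were called (23.6%), and 10 with replicate number as a block (10.8%). There were 6 after dividing by library means (3.6%), and 10 to 17 with a replicate left out (11.4 to 21.7%). In brains 3 were called (6.06%), and 1 with all 14 libraries in 1 fit (6.61%) or the replicate block (2.39%). Also 1 was called by a quasi-binomial model (2.59%) or after dividing by library means (1.98%). There were 5 on reads pooled over positions (6.75%), 0 by adjusted p (0.0239%), and 1 to 5 with a replicate left out (2.01 to 9.58%). In single cells 9 were called (13.6%), and 17 with all 8 sums in 1 fit (31.0%). There was 1 with the plate as replicate block (2.79%) or after dividing by means (1.55%). By adjusted p (0.0351%) or the quasi-binomial model (3.51%) there were 0. Of 38 members 5 had a called tissue difference (8.83%). The count over all members tested was 2 on the arcsine square root scale (4.76%) and 3 of 24 with at least 20 reads (13.9%). It was 9 on pooled reads (10.1%), 4 with the replicate block (5.06%), and 5 to 8 with a replicate left out (5.79 to 10.9%). After dividing by means it was 2, fzr larger (1.55% of all genes) and CycA smaller (2.04%) in S2 cells. At rest 7 were called (16.2%), 4 after dividing by means (9.13%) and 11 in the 6 Schneider's libraries alone (24.0%). The wider list was read from the same fits, so the same shares apply to it. Of the wider list, 37 rose in S2 cells (19 with the block, 7 after dividing by means, 15 to 35 with a replicate left out). In brains 10 of it rose (3 with the block, 2 after dividing by means, 0 by adjusted p, 4 to 10 with a replicate left out), and in single cells 28 (6 with the block, 0 by adjusted p). Dividing by means raised the number of members with a negative difference from 1 to 10 of 38 in S2 cells, from 1 to 15 of 36 in brains, from 0 to 10 of 39 in single cells and from 7 to 19 of 38 in the tissue difference. Among values called on either scale the sign reversed for E2f1 (-0.86) and dap (-0.76) in S2 cells and for the tissue difference of CycA (-1.12, in library means); the cause was not tested. Leaving out positions at or over 20% G in an uninduced library was chosen after seeing the data. Deviations of equal replicate numbers had correlations of -0.022 to 0.055 in bulk, and those of unequal numbers -0.0522 to 0.0617. Deviations at these read counts hold much counting error, so this cannot decide whether equal numbers share an experiment or batch. Leaving out a plate was not run because 1 sum per treatment leaves no residual degrees of freedom. Depth limits fzr, dap, Bub1, Mps1, Orc1 and Orc2 most.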

Other observations

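Single wells show how the edits were spread over cells. In single S2 cells, Orc1 reads were seen in 76 Schneider's and 87 arsenite wells, and a read with G in 1 and 18 of them. For CycB3 a read with G was seen in 7 of 92 and 34 of 93 wells, and for stg in 33 of 167 and 83 of 176. Wells with a read held on average 2.71 and 2.85 reads of Orc1, 3.74 and 3.46 of CycB3 and 12.4 and 20.3 of stg. For stg the well counts thus mix depth with editing, and their parts were not tested. These genes are examples, without a share over all genes. At codon 510 of Top2 6 of 15 arsenite reads in bulk S2 cells had G, against 16 of 28 Schneider's reads, a position chosen after its values were seen and not tested.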
